A study of Homo sapiens with 4 samples.

Results

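Divergent protein-coding promoter pairs are places where 2 protein-coding genes on opposite strands start close together and run away from each other. In the GENCODE 44 annotation of hg38, 887 such pairs had gene 5′ ends at most 1000 bp apart, and each region examined ran over the span between both 5′ ends plus 500 bp on each side. The pairs held 1710 of the 20033 protein-coding genes (8.54%), and merging overlapping regions left 824 loci, because 63 genes belonged to more than 1 pair and 80 pairs included a readthrough gene. The distance between the 5′ ends had a median of 132 bp (quartiles 69 and 248.5, range 1 to 995), and 717 pairs (80.8%) were at most 300 bp apart. The 18323 protein-coding genes in no pair served as the other promoters, each with a window of 1133 bp around its 5′ end, the median length of the pair regions.

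The peaks came from 4 CUT&RUN libraries (an assay in which a nuclease tethered by an antibody releases the bound DNA) of HSSY II, an SS18::SSX1-positive synovial sarcoma (SS) cell line. The targets were SS18::SSX, the fusion oncoprotein of this tumor, and WDR5. The cells had been treated for 4 days with DMSO or with 2.5 μM MS67, a proteolysis-targeting chimera (PROTAC) that degrades WDR5. Each library was made from 1000000 HSSY II cells with 50000 mouse NIH-3T3 cells added as the spike-in, and the mouse cells for SS18::SSX carried H2B-GFP, which an anti-GFP antibody in the same tube detected.

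There was 1 library per condition and target, so no difference had a replicate check. Every interval below is a 95% interval that covers counting error over regions only, and neighboring regions can share a peak. The WDR5 lists held 35605 peaks with DMSO and 14123 with MS67, and the SS18::SSX lists held 15141 and 1175. Genome-wide coverage recovered from the lists was 0.368 and 0.168 fragments per bp for WDR5, and 0.541 and 0.737 for SS18::SSX, in the same order. Peak lists hold no marker expression, so the identity of the cells was not checked here.

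A divergent promoter is usually a single CpG-rich, nucleosome-depleted stretch that starts transcription both ways, with positioned nucleosomes just inside each gene. Many of these pairs encode housekeeping proteins of DNA repair, mitochondria and translation, and replication-dependent histone genes are arranged in the same way. WDR5 is a core subunit of the KMT2/MLL complexes that methylate H3K4 at promoters, and SS18::SSX is a subunit of SWI/SNF chromatin-remodeling complexes.

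The spans between the 5′ ends of 10 pairs that the results below turn on are printed from hg38 on the plus strand, from the 5′ end of the minus-strand gene to that of the plus-strand gene. Capitals mark exact matches, on either strand, to the letters of short motifs. These were CCGGAAGT for the ETS family of transcription factors, GCATGCGC for NRF1, AAGATGGCG for YY1, and CTCGCGAGA for ZBTB33. The letters GGGCGG were searched for the SP/KLF zinc finger proteins and CACGTG, the E-box, for basic helix-loop-helix proteins such as MYC and USF. The last was the box with the letters TATAAA, which the TATA-binding protein recognizes. The first pair had one of the highest WDR5 peaks under both treatments.
URGCP/UBE2D4, chr7:43926411-43926436: tgccccgcgcgcgcaagcgcaggctg
MRM2/NUDT1, chr7:2242205-2242226: tgcctggcctcACTTCCGGtca
The second pair had a high WDR5 peak with DMSO and a far lower one with MS67. The next pairs had 2 of the 4 highest SS18::SSX peaks at any pair.
COA3/CNTD1, chr17:42798704-42798800: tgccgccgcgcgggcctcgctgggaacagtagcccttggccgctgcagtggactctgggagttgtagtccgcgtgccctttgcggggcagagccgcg
C10orf88/PSTK, chr10:122954311-122954381: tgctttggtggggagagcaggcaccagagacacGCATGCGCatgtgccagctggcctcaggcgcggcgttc
The next pairs had WDR5 peaks with MS67 and none with DMSO.
IDH1/PIKFYVE, chr2:208266074-208266255: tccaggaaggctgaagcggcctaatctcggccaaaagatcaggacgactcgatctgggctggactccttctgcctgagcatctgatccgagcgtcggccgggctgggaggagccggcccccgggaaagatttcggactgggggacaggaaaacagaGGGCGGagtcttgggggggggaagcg
AURKA/CSTF1, chr20:56392337-56392371: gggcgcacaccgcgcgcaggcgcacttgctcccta
The next pairs stand for a collagen pair with a WDR5 peak, a purine synthesis pair with no peak in any list, a histone pair whose WDR5 peak was lost with MS67, and a ribosomal protein pair whose WDR5 peak was lost.
COL4A4/COL4A3, chr2:227164453-227164624: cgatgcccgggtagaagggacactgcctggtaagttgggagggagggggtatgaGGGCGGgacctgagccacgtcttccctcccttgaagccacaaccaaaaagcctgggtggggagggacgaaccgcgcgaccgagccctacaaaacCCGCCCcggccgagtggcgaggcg
PPAT/PAICS, chr4:56435615-56435741: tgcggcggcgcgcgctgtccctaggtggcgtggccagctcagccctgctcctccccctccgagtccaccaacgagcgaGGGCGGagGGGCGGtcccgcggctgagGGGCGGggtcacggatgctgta
H2BC13/H2AC13, chr6:27807929-27808173: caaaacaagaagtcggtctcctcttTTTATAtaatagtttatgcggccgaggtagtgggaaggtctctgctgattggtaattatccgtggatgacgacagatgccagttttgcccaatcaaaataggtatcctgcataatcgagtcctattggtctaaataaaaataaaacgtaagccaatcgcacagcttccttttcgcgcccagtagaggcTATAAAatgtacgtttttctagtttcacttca
TRIM66/RPL27A, chr11:8682694-8682788: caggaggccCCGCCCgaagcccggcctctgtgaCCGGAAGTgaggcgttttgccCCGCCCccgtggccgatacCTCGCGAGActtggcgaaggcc
The span of PPAT/PAICS held 3 matches to GGGCGG and that of H2BC13/H2AC13 a TATA box match at each side. The short span of URGCP/UBE2D4 held no match to any of these letters.

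The pairs were richer in CpG than the other promoters. Regions with at least 55% GC and a CpG observed/expected ratio of at least 0.65 were called CpG-rich, which held for 642 pairs (72.4%) and for 7827 other promoters (42.7%). The median CpG ratio was 0.770 for the pairs and 0.651 for the others. In the 300 bases from 250 before to 50 after each 5′ end, CCGGAAGT was found at 14% of the genes in pairs, at 4.27% of the other promoters, at 6.69% of the CpG-rich other promoters, and at 5.10% of all protein-coding genes. The NRF1 letters were found at 8.77% of the genes in pairs, 5.15% of the CpG-rich others, and 3.78% of all genes, and the YY1 letters at 4.21%, 2.61%, and 1.88%. The SP/KLF letters were found at 72.0% of the genes in pairs, against 80.1% of the CpG-rich others and 52.4% of all genes. The TATA box letters were found at 5.09%, 4.32%, and 10.8%, and the ZBTB33 letters at 2.05%, 1.23%, and 0.834%. CCAAT, which NFY binds, was found at 40.9%, 32.8%, and 35.9%, and the E-box letters at 10.3%, 10.1%, and 8.36%. The 2 genes of a close pair share most of this window, so their matches were often the same one.

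With the peaks as deposited, WDR5 was found at nearly as many pairs with MS67 as with DMSO, whereas it was found at far fewer of the other promoters with MS67. This depended on the peak cutoff: with −log10 q above 5, the pair share was 25% with DMSO (22.2 to 28.0) and 11.6% with MS67 (9.58 to 13.9), and with the DMSO list cut to its 14123 highest peaks it was 25% with DMSO, against 46.4% with MS67. With DMSO, 433 of the 887 pairs had at least 1 WDR5 peak (48.8%, 45.5 to 52.2), against 39.4% of the other promoters and a background of 40.2% of all protein-coding promoters. With MS67, 412 pairs had one (46.4%, 43.1 to 49.8), against 25.4% of the others and a background of 27.1%. The pairs were thus 9.38 percentage points above the other promoters with DMSO (6.03 to 12.7) and 21.0 points above with MS67 (17.7 to 24.4). A pair region reached 500 bp into both genes, whereas the window of another promoter reached 500 bp into its own gene only. At other promoters with a WDR5 peak, the highest summit lay inside the gene in 51.0% with DMSO and 65.1% with MS67. The part of this unequal gene content in these and later differences between pairs and other promoters was not tested. The pairs took 1.39% of all WDR5 peaks with DMSO (496 of 35605) and 3.07% with MS67 (434 of 14123). The other promoters with a WDR5 peak went from 7225 to 4658, also a smaller fall than that of the whole list. How far the rise in this share was particular to the pairs was not tested.

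SS18::SSX was found at 147 pairs with DMSO (16.6%, 14.2 to 19.2), against 10.6% of the other promoters and a background of 11.1%, a difference of 5.92 points (3.58 to 8.55). With MS67 a single pair had an SS18::SSX peak (0.113%), against 0.404% of the others and a background of 0.379%. Both proteins were found with DMSO at 92 pairs (10.4%, 8.44 to 12.6), against 7.57% of the others and a background of 7.78%. Of the pairs with a WDR5 peak with DMSO, 21.2% also had an SS18::SSX peak (17.5 to 25.4), and of the pairs without one, 12.1% did (9.26 to 15.5). The other promoters gave 19.2% and 5.08%. Among CpG-rich regions without WDR5 with DMSO, 13.4% of the pairs and 11.6% of the others had SS18::SSX (1.71 points, -1.77 to 6.0), and both proteins were found at 11.5% and 12.4% (-0.828 points, -3.19 to 1.97), so neither difference was clear of 0 and the second was in the other direction.

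The comparison with DMSO turned with the choice of other promoters. The CpG-rich pairs had WDR5 peaks with DMSO in 49.8% and the CpG-rich other promoters in 59.3%, so the pairs were lower (-9.44 points, -13.4 to -5.43). With MS67 the CpG-rich pairs stayed higher, at 48.6% against 40.1% (8.53 points, 4.53 to 12.5). Their SS18::SSX shares were 18.2% and 17.1% (difference 1.13 points, -1.79 to 4.41). Among regions that were not CpG-rich, the pairs were higher. WDR5 with DMSO was found there at 46.1% of the pairs and 24.6% of the others (21.5 points, 15.3 to 27.8). The difference was 26.3 points for WDR5 with MS67 (20.3 to 32.6) and 6.40 points for SS18::SSX with DMSO (2.84 to 11.1). All pairs were also set against the 1420 other promoters with a long noncoding RNA gene in head-to-head orientation within 1000 bp. All pairs were 5.27 points lower for WDR5 with DMSO (difference -5.27, -9.44 to -1.08) and 7.65 points higher with MS67 (3.5 to 11.8). For SS18::SSX with DMSO they were 1.43 points higher (-1.59 to 4.57). The strength of the peaks mattered too. With peaks of −log10 q above 3 and fold above 6 for WDR5 (above 3 for SS18::SSX), the differences were -1.62 points for WDR5 with DMSO (-3.53 to 0.62), 4.64 points with MS67 (2.62 to 6.97), and 2.14 points for SS18::SSX with DMSO (0.47 to 4.17). With −log10 q above 5, they were 2.37 points (-0.43 to 5.39), 5.07 points (3.09 to 7.38), and 0.706 points (-0.29 to 2.09), so the intervals for WDR5 and SS18::SSX with DMSO then included 0.

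**Figure D1:**
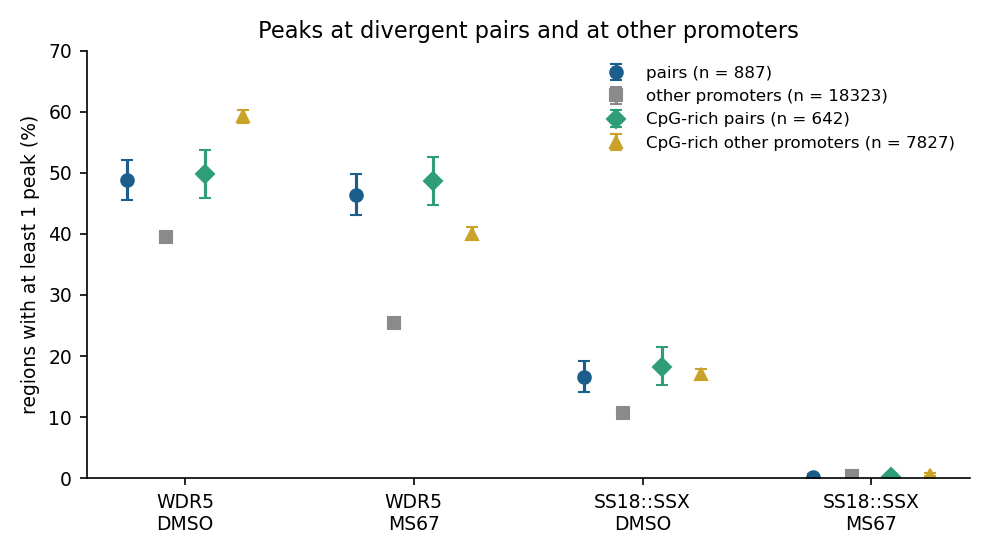
Share of regions with at least 1 peak (y axis, percent) in each of the 4 peak lists (x axis) for the divergent pairs, all other promoters, and the CpG-rich members of each; bars are 95% Clopper-Pearson intervals. With DMSO the WDR5 share of the pairs (48.8%) lay above all other promoters (39.4%) and below the CpG-rich ones (59.3%), and with MS67 it lay above both.

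The shares also depended on CpG content within the pairs. Where the CpG ratio was 0.5 to 0.7, 62.2% of the pairs had a WDR5 peak with DMSO and 54.1% with MS67, against 54.1% and 34.2% of the other promoters. Where it was 0.7 to 0.85, the shares were 49.2% and 47.4%, against 59.8% and 42.0%. Where it was 0.85 or more, they were 37.9% (31.2 to 44.9) and 43.7% (36.8 to 50.8), and the other promoters of that content gave 52.1% and 35.4%. The 37 pairs with a ratio under 0.5 gave 29.7% and 8.11%, against 10.9% and 4.02% of the other promoters.

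WDR5 peaks were lost with MS67 at a smaller share of the pairs than of the other promoters. Loss here means that no MS67 peak overlapped the region, so an MS67 peak elsewhere in the region counted as kept. Of the 433 pairs with a WDR5 peak with DMSO, 154 had none with MS67 (35.6%, 31.1 to 40.3), against 49% of the others and a background of 47.8% (difference -13.5 points, -18.0 to -8.71). Among CpG-rich regions the loss was 34.4% at pairs and 46.6% at other promoters (-12.3 points, -17.5 to -6.71). Of the 454 pairs with no WDR5 peak with DMSO, 133 had one with MS67 (29.3%, 25.1 to 33.7), against 8.79% of the others and a background of 10.2%. Among CpG-rich regions without a DMSO peak, 31.7% of the pairs and 20.7% of the others had one with MS67.

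The smaller loss at the pairs was seen at DMSO peaks of middle strength. For the highest DMSO peaks with −log10 q of 2.5 to 4, the loss was 33.3% at pairs (24.2 to 43.5) and 61.6% at the others (59.1 to 64.0). For 4 to 6 it was 34.5% (26.7 to 42.9) and 52.0% (49.9 to 54.2). Above 6 it was 31.8% (24.6 to 39.8) and 38.7% (37.0 to 40.4), and at or below 2.5 it was 60.5% (43.4 to 76.0) and 63.3% (58.7 to 67.8), so the intervals overlapped at both ends. Among CpG-rich regions the intervals were apart at 2.5 to 4 alone, with 32.0% at pairs (21.7 to 43.8) and 57.9% at other promoters (54.7 to 61.0). When both lists were limited to −log10 q above 3 and fold above 6, 76.3% of the pairs lost the peak (66.4 to 84.5), and the difference from the others was 1.82 points (-7.92 to 9.53). With −log10 q above 5 in both lists, 79.7% lost it and the difference was -1.84 points (-7.73 to 3.07). The MS67 library was the shallower one, with 0.458 times the DMSO coverage, and the part of depth in these losses was not tested.

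**Figure D2:**
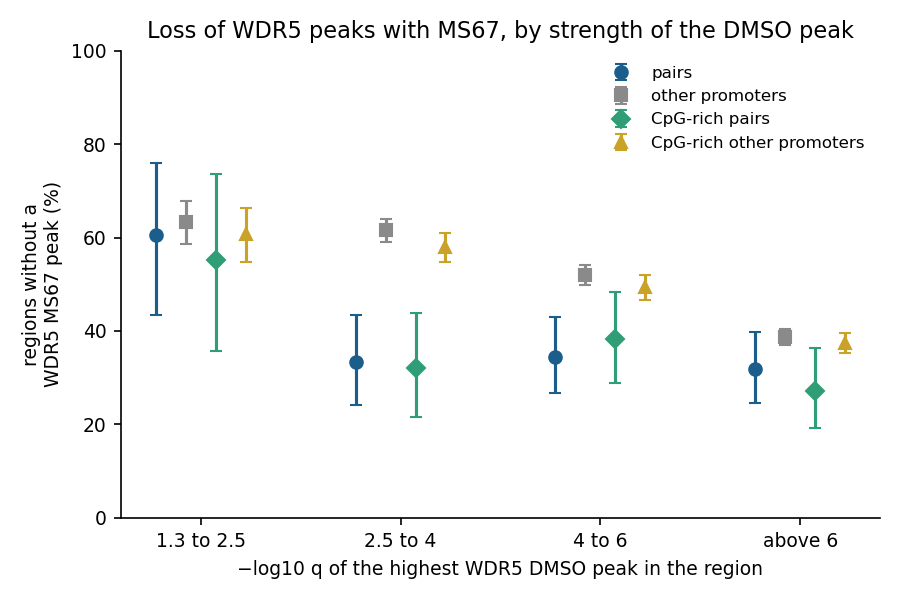
Share of regions with a WDR5 DMSO peak that had no WDR5 MS67 peak (y axis, percent), by the −log10 q of the highest DMSO peak in the region (x axis), for pairs and other promoters and the CpG-rich members of each; bars are 95% Clopper-Pearson intervals. The pairs lay below the other promoters at −log10 q of 2.5 to 4 (33.3% against 61.6%) and of 4 to 6 (34.5% against 52.0%).

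At the 279 pairs with WDR5 peaks under both treatments, the number of fragments at the highest summit with MS67 was a median of 0.643 of that with DMSO (quartiles 0.538 and 0.833). At 249 of them (89.2%) this was above the ratio of the genome-wide coverages, and at the other promoters the median was 0.600 and the share 75.3%. Fold over the local background with MS67 was a median of 1.06 times that with DMSO, and higher at 163 of the 279 pairs (58.4%). At the other promoters the median fold ratio was 1.00 and the share 49.9%. These pairs were counted only where a peak was called with MS67, which a low MS67 signal would prevent. Both summits were a median of 203 bp apart, and these highest peaks overlapped at 191 pairs (68.5%). At the other promoters with WDR5 under both treatments, the summits were 200 bp apart and the peaks overlapped at 76.3%. A region counted as kept whether or not these peaks overlapped. The lost pairs had a median −log10 q of 4.75 with DMSO, and the kept pairs 5.28. Their median distances between the 5′ ends were 115 and 128 bp, and their median CpG ratios 0.749 and 0.756. In the 300 bases around the middle, the ETS letters were found at 18.3% of the kept pairs (13.9 to 23.3) and 10.4% of the lost ones (6.06 to 16.3), against 14.0% of all pairs. The TATA box letters were found at 1.43% of the kept pairs (0.392 to 3.63) and 4.55% of the lost ones (1.85 to 9.14). They were found at 9.35% of the pairs with no WDR5 peak under either treatment (6.39 to 13.1), and at 5.19% of all pairs. The NRF1, CCAAT, SP/KLF, and E-box letters were also more frequent at the kept pairs than at the lost ones, and the YY1 and ZBTB33 letters less frequent. For every motif searched, the kept and lost intervals overlapped. Among the 321 pairs with WDR5 in neither list, 36 had an SS18::SSX peak with DMSO (11.2%, 7.98 to 15.2). Of the other promoters with WDR5 in neither list, 4.61% had one. The median CpG ratio was 0.790 for these pairs and 0.367 for these other promoters.

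SS18::SSX was lost at all 147 pairs (100%, 97.5 to 100), against 97.0% of the other promoters and a background of 97.3%. Of these, 59 had WDR5 under both treatments, 33 with DMSO alone, 19 with MS67 alone, and 36 under neither. The coverage of the SS18::SSX library was higher with MS67 than with DMSO. So was the median background at the highest SS18::SSX peaks of other promoters, at 4.10 against 1.32. The part of depth and background in this loss was not tested, and with 1 library each it cannot be told apart from the treatment. Over the 4 lists, 285 pairs had no peak (32.1%, against 52.7% of the other promoters), 219 had WDR5 under both treatments as their only peaks, 121 WDR5 with DMSO only, and 114 WDR5 with MS67 only (12.9%, against 4.80% of the other promoters).

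The highest summits of WDR5 lay mostly inside a gene of the pair, and those of SS18::SSX lay nearer to the middle. The summit was between both 5′ ends at 32 of 433 pairs for WDR5 with DMSO (7.39%, 5.11 to 10.3), at 36 of 412 with MS67 (8.74%, 6.19 to 11.9), and at 37 of 147 for SS18::SSX with DMSO (25.2%, 18.4 to 33.0). The bases between the 5′ ends made up a mean of 14.9%, 14.7%, and 17.4% of these regions. Summits outside the region counted as inside a gene, so these base shares are not expected shares. A summit lay in the region at 362 of the 433 pairs for WDR5 with DMSO and at 137 of the 147 for SS18::SSX. At the other promoters the median summit position was 21 bp into the gene for WDR5 with DMSO, 129 bp with MS67, and -1 bp for SS18::SSX. The median distance from the middle was 373.5 bp for WDR5 with DMSO, 272 bp with MS67, and 223 bp for SS18::SSX. At the 279 pairs with WDR5 under both treatments, it was 375.5 bp with DMSO and 281.5 bp with MS67, and the MS67 summit was the closer one at 165 of them. The WDR5 DMSO peaks were also wider, with a median of 377 bp against 276.5 bp with MS67 and 187 bp for SS18::SSX. The part of peak width in these positions was not tested.

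At the 92 pairs with both proteins with DMSO, the summits were a median of 356.5 bp apart (quartiles 170 and 600.25), and the peaks overlapped at 54 pairs (58.7%). The SS18::SSX summit was closer to the middle at 67 of these 92, with a median distance of 231.5 bp against 370 bp for WDR5. At 1387 other promoters with both proteins, the summits were a median of 319 bp apart and the peaks overlapped at 65.8%. Of the 94 pairs with at least 2 WDR5 peaks with DMSO, 69 had summits in both genes (73.4%), as had 43 of 59 with MS67 and 4 of 11 for SS18::SSX. Separate peaks in so short a region can lie on opposite sides through their spacing alone, and no expected share was computed. Summits rest on few fragments, a median of 13 and 9 for WDR5 and 8 for SS18::SSX at the pairs, which limits how exactly they are placed.

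**Figure D3:**
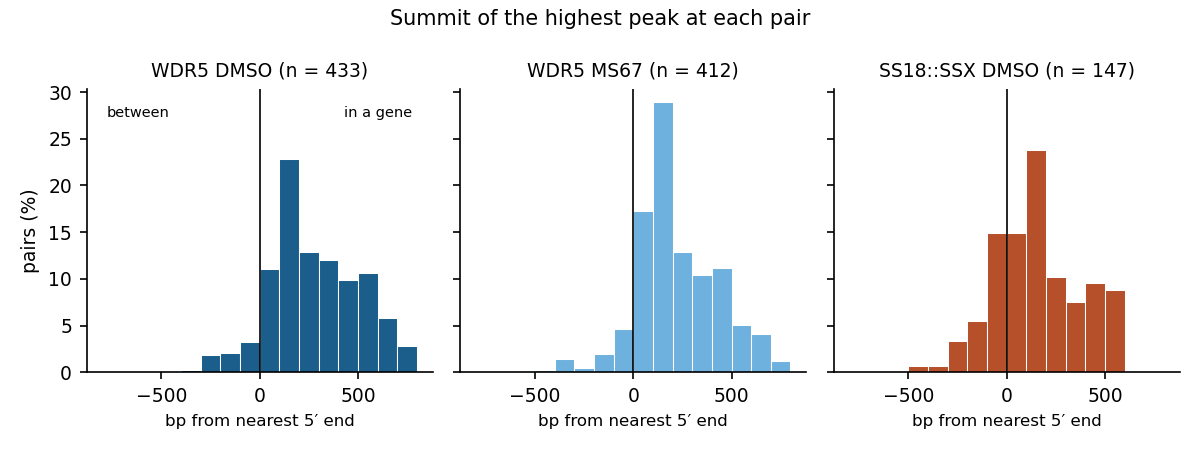
Position of the summit of the highest peak at each pair (x axis, bp from the nearest 5′ end in bins of 100 bp, negative between both 5′ ends and positive inside a gene) as a share of pairs (y axis, percent), for WDR5 with DMSO and MS67 and SS18::SSX with DMSO; 20 WDR5 DMSO summits and 1 WDR5 MS67 summit beyond 800 bp are not drawn. WDR5 was between the 5′ ends at 7.39% and 8.74% of the pairs and SS18::SSX at 25.2%.

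The shares were also counted by the distance between the 5′ ends. The SS18::SSX share with DMSO was 11% at 1 to 50 bp (6.4 to 17.2), 13.3% at 51 to 100 bp, 16.6% at 101 to 200 bp, 18.9% at 201 to 300 bp, 24.5% at 301 to 500 bp (16.2 to 34.4), and 22.4% at 501 to 1000 bp (13.6 to 33.4). For WDR5 with DMSO the share was 73 of 146 pairs at 1 to 50 bp, then 52.0%, 51.4%, 32.0% (23.8 to 41.0), 42.6%, and 64.5% (52.7 to 75.1) in the same order. With MS67 they were 47.3%, 48.0%, 45.1%, 42.6% (33.7 to 51.9), 45.7%, and 52.6% (40.8 to 64.2). Regions grow with the distance, so these shares are not per base. The WDR5 share of pairs 201 to 300 bp apart was below that of the closer pairs with DMSO, and with MS67 the intervals of all 6 bins overlapped, as did those of SS18::SSX. No difference between the 2 proteins in this respect was tested. Among the 30 pairs just inside the limit, at 801 to 1000 bp, 20 had WDR5 with DMSO, 16 with MS67, and 5 had SS18::SSX, and among the 14 head-to-head pairs just outside it, at 1001 to 1200 bp, the numbers were 7, 7, and 6.

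**Figure D4:**
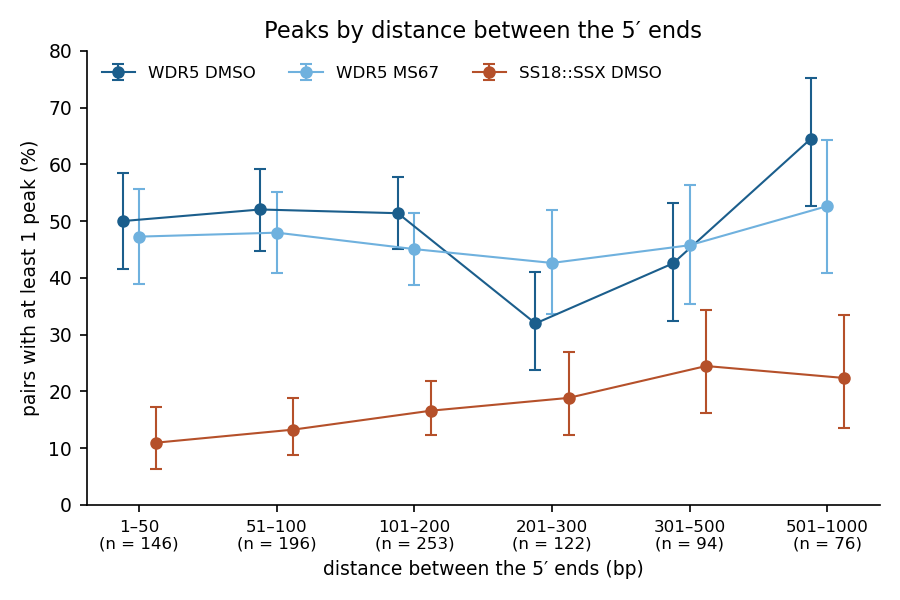
Share of pairs with at least 1 peak (y axis, percent) by the distance between the 5′ ends (x axis, bp, with the number of pairs) for WDR5 with DMSO and MS67 and SS18::SSX with DMSO; bars are 95% Clopper-Pearson intervals and lines only join the points of a list. The WDR5 DMSO share was 32.0% at 201 to 300 bp and 64.5% at 501 to 1000 bp, and the SS18::SSX share ran from 11% to 24.5%.

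The pair EFCAB12/IFT122 had the highest WDR5 peak of all pairs with DMSO, and IFT122 is a subunit of the intraflagellar transport machinery of cilia. Its −log10 q was 19.8 with DMSO (29 fragments over a background of 1.81) and 12.2 with MS67 (16 fragments over 0.63), with summits 272 and 126 bp inside EFCAB12. URGCP/UBE2D4, which starts 25 bp apart and includes a ubiquitin-conjugating enzyme, had −log10 q of 14.2 with DMSO and 13.6 with MS67, the highest MS67 value at any pair. CAPG/SH2D6, with an actin-capping protein, had 14 and 10.9. The −log10 q also depends on the depth of a library, which was lower for WDR5 with MS67. Fold over the local background, with DMSO and MS67, was 10.7 and 10.4 at EFCAB12/IFT122 and 8.32 and 10.7 at URGCP/UBE2D4. At CAPG/SH2D6 it was 5.93 and 8.13. The SS18::SSX lists held no peak at these 3 pairs.

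MRM2/NUDT1 joins a mitochondrial rRNA methyltransferase and a hydrolase of oxidized nucleotides. It had a WDR5 peak of −log10 q 13.6 with DMSO (23 fragments) and 2.61 with MS67 (7 fragments), and NUDT1 and an unnamed protein-coding gene form a further pair over the same peak. GDF5/CEP250, a bone morphogenetic protein family ligand and a centrosomal protein, went the other way, with 3.69 with DMSO (14 fragments) and 11.3 with MS67 (19 fragments), and an SS18::SSX peak of 2.40 with DMSO.

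The highest SS18::SSX peak of all pairs was at MPLKIP/SUGCT, whose 5′ ends are 383 bp apart. Its −log10 q was 12.7 with DMSO (17 fragments over a background of 0.81), its summit was 4 bp from the middle of the pair, and no SS18::SSX peak was called with MS67. WDR5 at this pair had −log10 q of 3.78 with DMSO and 5.49 with MS67, with both summits inside SUGCT. COA3/CNTD1, which includes an assembly factor of cytochrome c oxidase, had an SS18::SSX peak of 8.70 and a WDR5 peak of 4.77 with DMSO, and neither with MS67. C10orf88/PSTK, with a kinase of selenocysteine tRNA synthesis, had an SS18::SSX peak of 7.47 inside PSTK and WDR5 peaks of 8.92 with DMSO and 7.92 with MS67, both inside C10orf88. TMEM143/SYNGR4 had an SS18::SSX peak of 7.36 and WDR5 peaks of 4.29 and 3.73.

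The single SS18::SSX peak with MS67 was at MRPL36/NDUFS6, a subunit of the mitochondrial ribosome and one of complex I. Its −log10 q was 2.31, with 16 fragments over a background of 3.64, and its summit lay 632 bp inside MRPL36, outside the region itself. The pair is in 1 of the 100 1-Mb bins with the highest local background in the WDR5 DMSO list, which held 21 pairs in all. WDR5 at this pair had −log10 q of 5.29 with DMSO and 3.79 with MS67.

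Among the pairs with WDR5 with MS67 and none with DMSO, the highest peaks were at IDH1/PIKFYVE (−log10 q 8.91, 15 fragments), NME7/BLZF1 (8.46, 13 fragments), and AURKA/CSTF1 (7.69, 16 fragments). IDH1 is the cytosolic isocitrate dehydrogenase, PIKFYVE a phosphoinositide kinase, and AURKA the mitotic kinase Aurora A. AURKA/CSTF1 also had an SS18::SSX peak with DMSO (4.66). The pairs with the most peaks over the 4 lists were TMED1/C19orf38 and TRAPPC6A/BLOC1S3, with 6 each, 2 in each list but the SS18::SSX MS67 list, and NSL1/TATDN3 was among the pairs with 5. NSL1 is a kinetochore protein, and at its pair the WDR5 DMSO, WDR5 MS67, and SS18::SSX DMSO summits all lay 143 to 190 bp inside TATDN3.

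**Figure D5:**
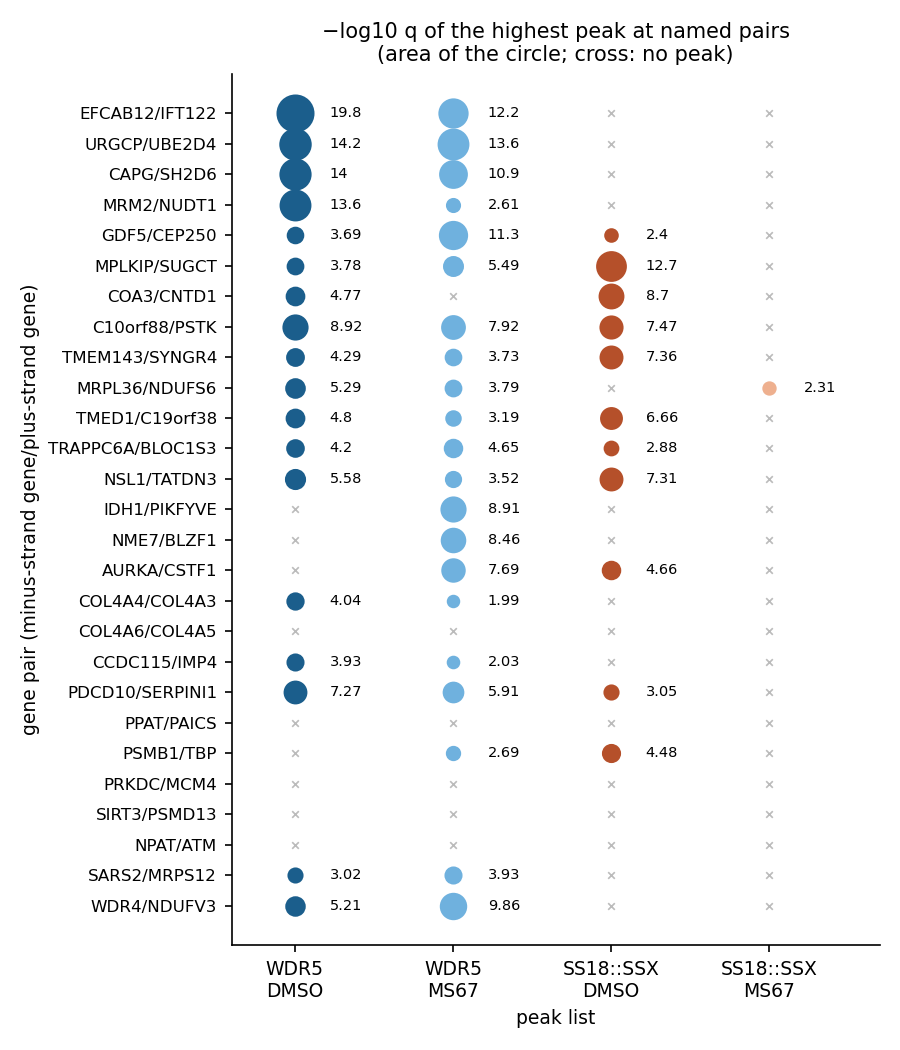
The −log10 q of the highest peak (circle area and printed value) in each of the 4 peak lists (x axis) at named pairs (y axis), with a cross where the list held no peak in the region. WDR5 values ranged up to 19.8 with DMSO and 13.6 with MS67, and only MRPL36/NDUFS6 had an SS18::SSX peak with MS67 (2.31).

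The pairs were also grouped by the function of their genes, and each count below is to be read against the 48.8% of all pairs with WDR5 with DMSO, the 46.4% with MS67, the 16.6% with SS18::SSX with DMSO, the 35.6% of WDR5 DMSO pairs without an MS67 peak, and the 29.3% of the rest with MS67 alone. Of 18 mitochondrial ribosomal protein pairs, of which MRPL47 and MRPL32 form 2 each, 10 had WDR5 with DMSO (55.6%), near the share of all pairs, and 62.3% of the other promoters of such genes had it. All 10 regions also had a WDR5 peak with MS67, though at MRPL36/NDUFS6 both peaks lay in different genes and did not overlap. A further 4 had it with MS67 alone (14 of 18 with MS67 in all, 77.8%, against 52.5% of the other promoters of such genes), and 2 had SS18::SSX with DMSO. MRPL27/EME1 had −log10 q of 10.0 with DMSO and 3.57 with MS67, MRPL46/MRPS11, where both genes encode ribosomal subunits of mitochondria, had 7.23 and 2.95, and MRPL10/LRRC46 had 6.02 and 5.71. For the cytosolic ribosomal proteins, 3 of 12 pairs had WDR5 with DMSO (25%), below the share of all pairs and close to the 27.0% of the other cytosolic ribosomal protein promoters. These were RPL35/ARPC5L (6.65), TRIM66/RPL27A (4.67), and RPL12/LRSAM1 (2.96), whose summit lay 891 bp inside LRSAM1, outside the region itself. All 3 lost it, while 3 other pairs had WDR5 with MS67 alone, so the share was 25% with MS67 too (28.4% at the other promoters). Of the mitochondrial respiratory chain and assembly pairs, 13 of 33 had WDR5 with DMSO (39.4%) and 17 with MS67 (51.5%), both near the shares of all pairs, with 2 lost and 6 with MS67 alone. TSSK6/NDUFA13 had 6.35 and 4.03. These lists share pairs and pairs share peaks, and no list was tested against another. Each value given for a pair is that of the highest peak that overlapped its region, and some of these summits lay outside the region.

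Of 42 pairs with a DNA repair or replication gene, 18 had WDR5 with DMSO (42.9%, near the share of all pairs) and 26 with MS67 (61.9%), 2 lost it, and 10 had it with MS67 alone. SS18::SSX was found with DMSO at 4 of them (9.52%), against 16.6% of all pairs, 16.7% of the other promoters of such genes, and 11.1% of all promoters. TMEM258/FEN1, with the flap endonuclease of Okazaki fragment processing, had WDR5 peaks of 7.60 with DMSO and 2.62 with MS67 and an SS18::SSX peak of 6.20, all with summits inside TMEM258. LIPT2/POLD3, with a subunit of DNA polymerase delta, had 7.40 and 6.30. XAB2/PET100 had 8.84 and 2.56, from DMSO and MS67 peaks that did not overlap, and XAB2 forms a further pair over the same peaks. Of 7 proteasome pairs, 1 had WDR5 with DMSO (PSMD10/ATG4A, 7.45) and 3 with MS67. All 3 aminoacyl-tRNA synthetase pairs had WDR5 with DMSO, and LYRM4/FARS2 (2.73) and RARS2/ORC3 (1.65) lost it. Of 33 zinc finger gene pairs, 18 had WDR5 with DMSO (54.5%), 16 with MS67 (48.5%), and 5 had SS18::SSX (15.2%), all near the shares of all pairs, with 5 lost and 3 with MS67 alone. ZNF668/ZNF646 had 7.81 and 2.32.

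The replication-dependent histone pairs had few peaks. WDR5 with DMSO was found at 1 of 15 (6.67%), against 48.8% of all pairs, and at 6.82% of the other histone promoters, and SS18::SSX with DMSO at 1 of 15, against 16.6% of all pairs. Of these pairs, H2BC13/H2AC13 had a WDR5 peak with DMSO (2.24), H2BC12/H2AC12 had an SS18::SSX peak with DMSO (2.92), and no pair had a peak with MS67. H2BC12/H2AC12 was picked out after its values were seen. Histone genes have near-identical copies, so reads there may have been lost or shared in the alignment, and this was not tested. Of the 2 type IV collagen pairs, COL4A4/COL4A3 had WDR5 with DMSO (4.04, 8 fragments) and MS67 (1.99, 4 fragments), and COL4A6/COL4A5 had no peak.

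Pairs with genes of the 2 complexes were few. BRD9/TRIP13, with a SWI/SNF subunit, had WDR5 peaks of 6.79 with DMSO and 3.74 with MS67, and PSMA7/SS18L1 had no peak. The summit of this DMSO peak lay 873 bp inside BRD9, outside the region itself. Of the pairs with a KMT2 complex gene, GLT8D2/HCFC2 had a WDR5 peak with MS67 alone (6.79), and RHOF/SETD1B and HCFC1/TMEM187 had no peak. Among 6 pairs with a developmental transcription factor gene, 4 had WDR5 with DMSO (66.7%) and 2 with MS67 (33.3%), too few to set beside the shares of all pairs. The other promoters of such genes had WDR5 in 29.1% and 9.30%. FOXL2/FOXL2NB (4.65) and SOX18/TCEA2 (7.51) lost it, SOX30/C5orf52 had 5.45 and 2.65, and SYMPK/FOXA3 had 2.81 and 2.39. The highest DMSO and MS67 peaks at SYMPK/FOXA3 did not overlap. At SOX18/TCEA2 the WDR5 summit lay 1127 bp inside TCEA2, outside the region itself. SS18::SSX was found with DMSO at SOX18/TCEA2 (6.75) and SYMPK/FOXA3 (4.81), and LMF1/SOX8 and FOXM1/TULP3 had no peak in any list within their regions. For LMF1/SOX8 the region was 1453 bp long, and peaks elsewhere at SOX8 were not counted. The paper reports WDR5 and SS18::SSX binding at SOX8 in HSSY II cells that decreased with MS67.

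Of 9 divergent pairs well known from textbooks, 4 had WDR5 with DMSO and 5 with MS67 (44.4% and 55.6%, near the shares of all pairs). WDR4/NDUFV3, with a complex I subunit, had 5.21 and 9.86, and CCDC115/IMP4 had 3.93 and 2.03. At both of these pairs the highest DMSO and MS67 peaks had summits in different genes and did not overlap. PDCD10/SERPINI1 had 7.27 and 5.91 and an SS18::SSX peak of 3.05 with DMSO, and SARS2/MRPS12 had 3.02 and 3.93. PSMB1/TBP, with a proteasome subunit and the TATA-binding protein, had WDR5 with MS67 alone (2.69) and SS18::SSX with DMSO (4.48). PPAT/PAICS, whose products act in purine synthesis, SIRT3/PSMD13, PRKDC/MCM4, and NPAT/ATM had no peak in any list.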

How the data were processed

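CUT&RUN peaks of SS18::SSX and WDR5 were analysed in HSSY II cells treated with DMSO or MS67, with 1 library per condition. Per the paper's methods, the authors aligned reads with Bowtie2 to hg38 and to mm10 for the spike-in, removed nonprimary alignments and PCR duplicates, and called peaks with MACS2, with 1 deposited list per library. The submitters' processing notes name SAMtools (1.9), Picard, bedtools (2.28.0), MACS2, and deepTools (3.3.0). MACS2 options and a control library are not given in the sources used here. The deposited lists give, per peak, coordinates, a summit offset, fold enrichment (a ratio of the pileup to that library's own local background), −log10 p, −log10 q, and a score, which was not used. Signals scaled to the spike-in were not used here.

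Head-to-head pairs of protein-coding genes came from GENCODE 44, and a peak was counted when it overlapped a region by at least 1 bp. Windows of other promoters reached 500 bp into the gene and 500 bp plus the median distance of 132 bp before it. Fragments and background at each summit were solved from fold and −log10 p, which fitted 100% of the peaks to within 0.001. The lowest background was taken as genome-wide coverage. This step and the overlap counts were tested on simulated data. Shares have Clopper-Pearson and differences have Newcombe intervals, and no p-value was computed.

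The pairs and gene lists were chosen with earlier results of these data known. Pairs were named by a rule: the 4 with the highest −log10 q in each list, the 3 with most peaks, the 3 highest with an MS67 peak and no DMSO peak of that target, every pair of 5 short gene lists, and up to 4 examples of each other list. Alternatives were stricter peaks, summit position, flank, distance limit, canonical transcripts, overlapping 5′ ends, 1 region per locus, bins of raised background, and other sets of promoters. The 2 added results (MS67 alone, and the difference in loss), the CpG-matched comparison, and the shortened DMSO list were chosen after seeing the data. Tools were statsmodels 0.14.6, scipy 1.17.1, pandas 2.3.3, numpy 2.4.6, and matplotlib 3.10.9 under Python 3.11.15.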

Additional observations from a re-analysis of the deposited data

How the results depend on the processing

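Over 13 results and 16 alternatives there were 169 comparisons, of which 111 stayed within the interval of the value reported, 52 moved out of it, and 6 changed sign. The cause of these changes was not tested.

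With the stricter peaks (−log10 q above 3, with fold above 6 for WDR5 and 3 for SS18::SSX), the shares of pairs were 10.5% for WDR5 with DMSO, 12.1% with MS67, 8.23% and 0.0% for SS18::SSX, and 1.13% for both proteins. The differences from other promoters were -1.62, 4.64, and 2.14 points, WDR5 loss was 76.3%, its difference 1.82 points, and the share with MS67 alone 10.7%. With −log10 q above 5 the same values were 25%, 11.6%, 3.16%, 0.0%, and 1.47%, then 2.37, 5.07, and 0.706 points, 79.7%, -1.84 points, and 8.72%. With the summit in the region, WDR5 shares were 40.8% and 42.3%, both proteins 7.78%, and SS18::SSX with MS67 0.0%. A flank of 250 bp gave 40.4%, 38.8%, 14%, 0.0%, and 8.0%, with a loss of 42.2%, and a flank of 1000 bp gave 65.1%, 53.9%, and 20.1%, with 15.9% for both and a WDR5 DMSO difference of 17.7 points. Canonical transcripts (984 pairs) gave a WDR5 share of 51.3% and an SS18::SSX share of 0.0% with MS67, a loss of 30.0%, and SS18::SSX differences of 3.43 and -0.54 points. Adding pairs with overlapping 5′ ends (1396 pairs) gave a WDR5 DMSO difference of 13.3 points, and leaving out the bins of raised background gave 0.0% for SS18::SSX with MS67.

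Against CpG-rich other promoters, all pairs differed by -10.5 points (DMSO) and 6.38 points (MS67) in WDR5 peaks, and by -0.522 and -0.462 points in those of SS18::SSX. CpG-rich pairs differed from them by -9.44, 8.53, and 1.13 points in the first 3 lists, and all pairs differed from promoters with a head-to-head long noncoding RNA by -5.27, 7.65, and 1.43 points. With the WDR5 DMSO list cut to its 14123 highest peaks, the DMSO share was 25%, its difference 2.67 points, both proteins 4.96%, and MS67 alone 38.9%.

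The difference for WDR5 with MS67 stayed above 0 in every alternative run, and that with DMSO did not. Each call rests on a median of 8 to 16 fragments at a summit, and a pair without a peak is not shown to lack the protein. No paired analysis was possible because each condition had 1 library.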
